A study of Mus musculus with 20 samples.

Results

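In all, 10 genes of the heart muscle were followed through 5 organs of WT and Nsun6-KO mice. They are Myl4, Myl7, Nppa, Sln, and Bmp10, which are known from the atrium, Myl2, Myl3, and Myh7, which are known from the ventricle or from slow muscle, and Myh6 and Nppb, which both chambers of the adult mouse use. The genes were found by their symbols, and all 10 were present among the 55401 genes of the count table. RNA had been sequenced from the heart, spleen, liver, kidney, and small intestine, with 2 WT and 2 KO libraries in each organ and 20 libraries in all. The mice were 8-week-old females, and the KO strain had been made by injecting Cas9 and 2 guide RNAs into fertilized C57BL/6J eggs, which removed exons 3 and 4 of Nsun6, the gene of an RNA methyltransferase that makes 5-methylcytosine in mRNA. The KO is in every cell of the animal, and the WT mice carry the intact gene. The study calls the libraries biological replicates but the labels do not name animals, so the p-values measure only the spread between these samples. In heart, the total counts were 17959542 and 36090637 in WT replicates 1 and 2, and 15897446 and 41763236 in KO replicates 1 and 2, so replicate 1 was the shallower library in both genotypes.

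Atrial and ventricular muscle cells build the same contractile unit with partly different parts. Each myosin motor has a heavy chain, an essential light chain, and a regulatory light chain, and the atrium uses Myl4 and Myl7 as its light chains where the ventricle uses Myl3 and Myl2. The atrium is also the main source of the hormone encoded by Nppa, of sarcolipin, a small peptide that slows the calcium pump of the muscle store and is encoded by Sln, and of the signalling protein BMP10.

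Before the comparisons, the labels were checked. Nsun6 had 6.62 and 6.27 CPM (counts scaled to the library size after TMM normalization within the organ) in the heart WT libraries and 5.57 and 5.11 CPM in the KO libraries. These counts cover all exons of the gene, and since only 2 exons were deleted, they do not check the genotype. The organ label was met by the defining genes of heart muscle cells: Tnni3, cardiac troponin I, had between 7439 and 14333 CPM, and Tnnt2, cardiac troponin T, between 7913 and 12117 CPM in the heart libraries. All 6 cardiomyocyte markers of the list were present, and their summed level was 46511 and 32892 CPM in WT and 46212 and 38950 CPM in KO. The most abundant of these markers by TPM was Actc1, cardiac actin, and 0 of the 6 were DEGs (over 2-fold apart with an adjusted p under 0.1) by edgeR or DESeq2. Libraries that stood apart were KO replicate 1 of the heart, which had few atrial transcripts, and KO replicate 1 of the small intestine and, to a lesser degree, WT replicate 1 of the liver, which held ventricular transcripts. The genotype comparisons that rest on them are also given without them.

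The levels of the 10 genes spanned about 4 orders of magnitude in the heart. On the TPM scale, which divides each count by the merged exon length of the gene, Myl2 was the highest with a mean of 30637 TPM (SD 5611, n = 4) and a range from 23534 to 36208. Myl3 followed with 8159 TPM (SD 279, n = 4), and Myh6, the fast heavy chain that carries nearly all adult mouse heart myosin, with 4177 TPM (SD 1874, n = 4). The ranges of these 3 genes did not overlap with each other, nor did that of Myh6 with Nppb, the next gene, which had a mean of 1149 TPM (SD 466, n = 4). Then came Myl7 with 820 TPM (SD 822, n = 4), Nppa with 613 TPM (SD 416, n = 4), Sln with 215 TPM (SD 214, n = 4), Myl4 with 140 TPM (SD 117, n = 4), and Myh7, the slow heavy chain, with 84.8 TPM (SD 54.5, n = 4). From Nppb to Myh7, each gene's range overlapped with that of its neighbour in the order. Bmp10 was the lowest with 2.19 TPM (SD 3.38, n = 4), and its highest library, at 7.12 TPM, was below the lowest of Myh7, at 34.9 TPM. The place of Myl4 depends on its length, because the merged exons measure 4637 bp and the longest coding transcript of the GENCODE annotation 943 bp. With the length of that transcript, chosen after seeing the data, the mean level of Myl4 was 691, between Myl7 and Nppa. Only the length of the gene was exchanged and the total over all genes was kept, so this value is not a full TPM. The same exchange gave 67202 for Myl2 and 17798 for Myl3 and left Myl7 and Nppa as they were.

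**Figure D1:**
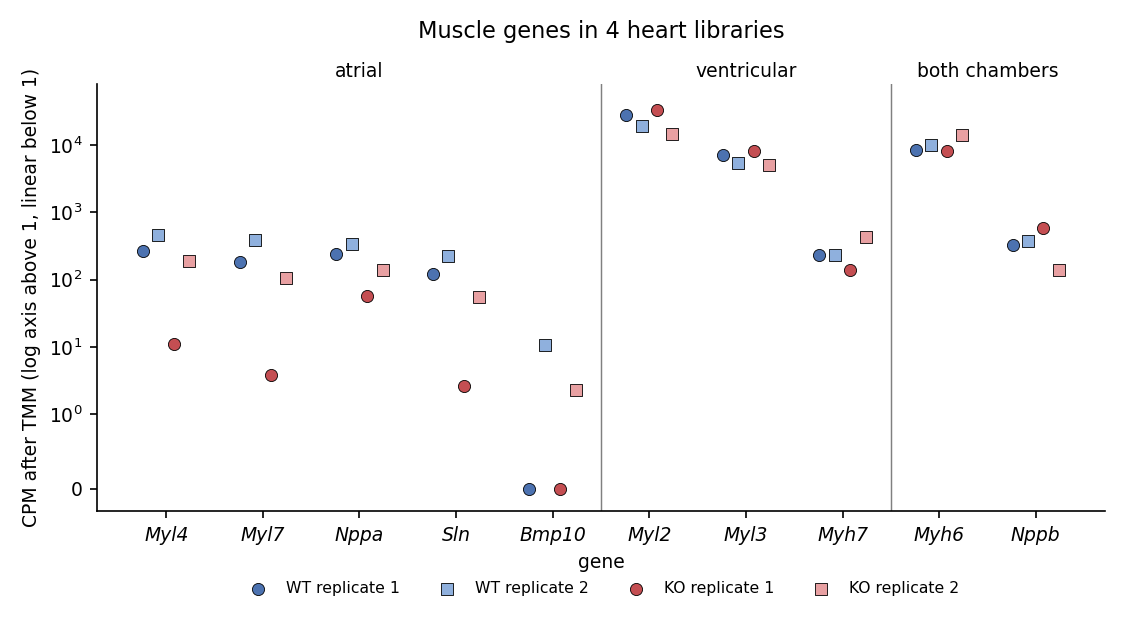
CPM after TMM normalization of the 10 genes (y axis, logarithmic above 1 and linear below) in the 2 WT (blue) and 2 KO (red) heart libraries, with circles for replicate 1 and squares for replicate 2. KO replicate 1 has the lowest value of Myl4, Myl7, Nppa, and Sln, whereas its Myl2 and Myl3 values are the highest of the 4 libraries.

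For the atrial light chains, Myl4 (ENSMUSG00000061086), the essential one, spans 104550663 to 104595753 of chromosome 11 (GRCm38, plus strand). Its heart levels were 264 and 452 CPM in WT and 11.1 and 190 CPM in KO. Each KO library was lower than each WT library, and KO replicate 1 had 3.10% of the WT mean while KO replicate 2 had 53.2%. Myl7 (ENSMUSG00000020469), the regulatory light chain, lies on the same chromosome from 5896637 to 5898782 on the minus strand. It had 181 and 388 CPM in WT and 3.83 and 107 CPM in KO, so that KO replicate 1 was at 1.35% of the WT mean. Again the genotypes did not overlap, and the WT libraries differed from each other by more than KO replicate 2 differed from WT replicate 1.

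Nppa (ENSMUSG00000041616), the gene of atrial natriuretic peptide, lies on chromosome 4 from 148000722 to 148002079 on the plus strand. It had 237 and 333 CPM in WT and 57.8 and 138 CPM in KO. The genotypes did not overlap, but KO replicate 1 kept 20.3% of the WT mean of Nppa, a larger part than of either light chain. The ratio of Nppa to Myl4 on the TPM scale was 4.81 and 3.95 in the WT libraries, 3.89 in KO replicate 2, and 28.0 in KO replicate 1. With the transcript lengths in place of merged exons it was 0.979 and 0.803 in WT, 0.791 in KO replicate 2, and 5.69 in KO replicate 1, so the size of the ratio depends on the length used, but not the order of the libraries. Sln (ENSMUSG00000042045), on chromosome 9 from 53850164 to 53854560 on the plus strand, had 119 and 225 CPM in WT and 2.65 and 55.2 CPM in KO. KO replicate 1 thus had 1.54% of the WT mean of Sln, close to the light chains and far below Nppa.

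Bmp10 (ENSMUSG00000030046), a ligand that the right atrium secretes, lies on chromosome 6 from 87428994 to 87437677 on the plus strand. It had 0 and 413 counts in WT and 0 and 105 counts in KO. The split followed the replicate number and not the genotype, since replicate 1 was at 0 in both. A count of 0 allows up to 0.167 CPM in WT replicate 1 and 0.189 CPM in KO replicate 1 (3 counts, counting error only), and the libraries with counts had 10.7 CPM (WT replicate 2) and 2.31 CPM (KO replicate 2). Both of these levels were above the limits.

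Among the ventricular genes, Myl2 (ENSMUSG00000013936), the regulatory light chain on chromosome 5 from 122100951 to 122113472, had 28100.5 and 18909 CPM in WT and 32587 and 14315 CPM in KO. The KO libraries lay on either side of the WT libraries, with KO replicate 1 highest and KO replicate 2 lowest. Myl3 (ENSMUSG00000059741), the essential light chain on chromosome 9 from 110741861 to 110769798, had 7115 and 5422 CPM in WT and 8064 and 5095 CPM in KO. Its order of libraries was that of Myl2. Myh7 (ENSMUSG00000053093), the slow heavy chain on chromosome 14 from 54970684 to 54994626, had 231 and 229 CPM in WT and 139 and 434 CPM in KO. Here KO replicate 2 was the highest and KO replicate 1 the lowest, the reverse of the light chains.

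Of the genes used by both chambers, Myh6 (ENSMUSG00000040752) lies beside Myh7 on chromosome 14, from 54941921 to 54966927. It had 8474 and 9928 CPM in WT and 8096 and 14126 CPM in KO, and the KO libraries again enclosed the WT libraries. Nppb (ENSMUSG00000029019), the gene of brain natriuretic peptide, lies on chromosome 4 from 147985788 to 147987205, close to Nppa. It had 327 and 375 CPM in WT and 579 and 140 CPM in KO, so the KO library with the least Nppa had the most Nppb. Of all windows of 50 bases in the Myh7 transcript, 22.2% also occur in the Myh6 transcript, so reads of this pair could be split between them, whereas no such window is shared between Myl7 and Myl2 or between Myl4 and Myl3. Some exon bases of Myl4, Nppa, Myl2, Myl3, Myh7, and Myh6 are shared with other annotated genes, and those of Myl7, Sln, Bmp10, and Nppb with none.

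The balance of the chambers was then taken for each heart library as the mean log2 CPM of the 5 atrial genes minus that of the 3 ventricular genes, with a prior count of 2. It was -6.51 and -4.08 in WT and -9.92 and -5.93 in KO. KO replicate 1 was the lowest, KO replicate 2 lay between the WT libraries, and the genotypes overlapped. Within each replicate number the KO value was the lower one. Without Bmp10, which had no count in replicate 1 of either genotype, the balance was -8.51 and -4.82 in KO against -4.23 and -3.08 in WT, and the genotypes did not overlap. With all 8 genes, the KO mean minus the WT mean was -2.63 on the log2 scale, while the SD was 1.72 in WT and 2.82 in KO (n = 2 each). Without KO replicate 1 the difference was -0.64, and without KO replicate 2 it was -4.62. A score over chosen genes was given no test. In bulk tissue, fewer atrial cells in a library and less RNA of these genes per cell cannot be told apart.

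The same was seen within pairs of related genes, as shares of the pair's TPM. Myl7 made up 2.09% and 6.35% of the regulatory light chains Myl7 and Myl2 in WT, and 0.0389% and 2.41% in KO. Myl4 made up 1.61% and 3.55% of the essential light chains Myl4 and Myl3 in WT, and 0.0605% and 1.62% in KO. In both pairs KO replicate 2 was above WT replicate 1, and within each replicate number the KO share was the lower one. With the transcript lengths, Myl7 made up 0.964% and 2.998% (WT) against 0.0177% and 1.11% (KO), and Myl4 3.55% and 7.65% (WT) against 0.136% and 3.58% (KO), with the libraries ranked as before. Sln made up 7.37% and 15.6% of the calcium pump inhibitors Sln and Pln (phospholamban) in WT, and 0.168% and 4.88% in KO. This was the only one of the 5 pairs whose KO shares were both under the WT shares. Nppa made up 39.5% and 44.5% of Nppa and Nppb in WT, and 8.28% and 47.2% in KO, and Myh7 1.32% to 2.34% of the heavy chains Myh7 and Myh6 over the 4 libraries. KO replicate 2 had the highest share in these last 2 pairs.

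**Figure D2:**
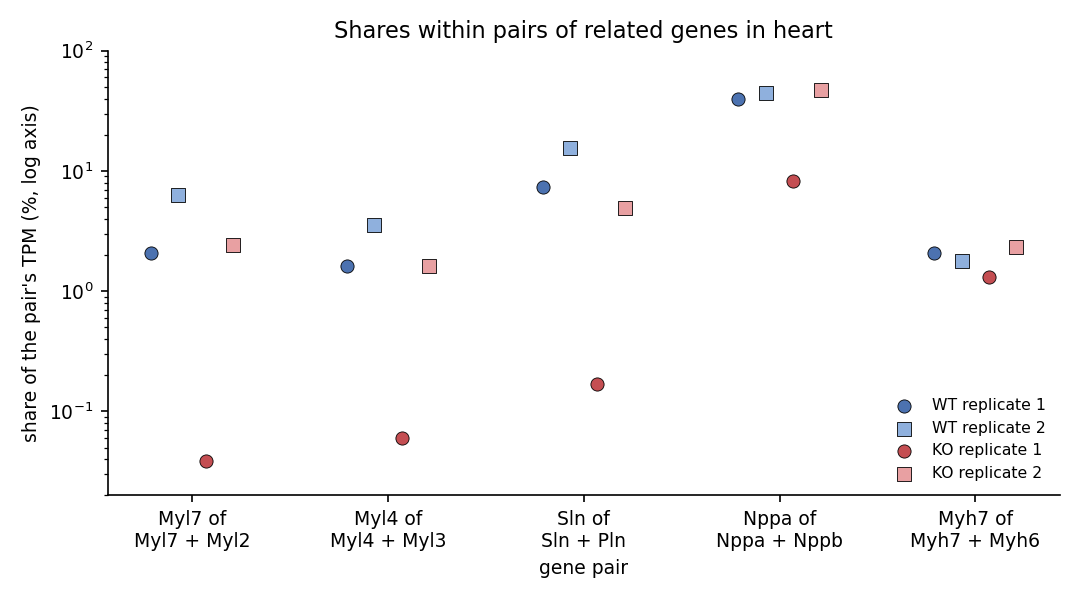
Share of the pair's TPM (y axis, percent on a log axis) that the first named gene makes up in each of 5 pairs, in the 2 WT (blue) and 2 KO (red) heart libraries. KO replicate 1 is the lowest point of every pair, at 0.0389% for Myl7 of Myl7 and Myl2.

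The genotypes were compared in heart with the quasi-likelihood test of edgeR over 16632 genes, with the same threshold for DEGs. Of the 10 genes, 0 were DEGs, and of all genes tested 0% were called. Before adjustment, 1 of the 10 had a p under 0.05 (Nppa), as had 117 of all genes, of which 86 were lower in KO. DESeq2 called 0 of the 10 genes and 3 of all genes (0.0107%). The log2 fold change of Nppa was -1.54 (SE 0.45, edgeR adjusted p = 0.99998). Both heart columns of replicate 2 carry a mark in their headers, and with the replicate number as a block Nppa was called (log2 fold change -1.65, edgeR adjusted p = 0.000337), 1 of the 10 genes beside 6 of all genes (0.0361%). The fit with the block leaves only 1 residual degree of freedom for the spread. No label ties the replicate numbers to animals, so this call is not a paired result. With the block, Sln, Myl7, and Myl4 had log2 fold changes of -3.45, -3.47, and -2.82 and were not called. Without the block, theirs were -2.55 (SE 1.12), -2.36 (SE 1.21), and -1.83 (SE 1.05), and that of Bmp10 was -2.09 (SE 1.81). The fitted value of Bmp10 rests on 1 library of each genotype, because the other was at 0. The other 5 genes were near 0, from -0.0033 for Myl2 (SE 0.56) to 0.32 for Myh7 (SE 0.51), beside a median of -0.009 over all genes.

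The KO libraries were both under the WT libraries for 4 of the 10 genes (Nppa, Sln, Myl7, and Myl4), while this held for 9.66% of all genes tested, and the opposite held for 0 of the 10 genes and for 7.56% of all genes. The size of these 4 fold changes rested in part on KO replicate 1. Without it, their log2 fold changes were -1.02 (Nppa), -1.62 (Sln), -1.39 (Myl7), and -0.89 (Myl4), all with an edgeR adjusted p of 0.9998. Without KO replicate 2, they were -2.30, -6.02, -6.21, and -5.01, with edgeR adjusted p-values of 0.0398, 0.000625, 0.00364, and 0.000625, so all 4 were called, beside 12 of all genes (0.0731%). In that fit KO replicate 1 is the only KO library and is assumed to vary like WT. Myl2, Myl3, Myh7, Myh6, and Nppb each changed sign between these fits.

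**Figure D3:**
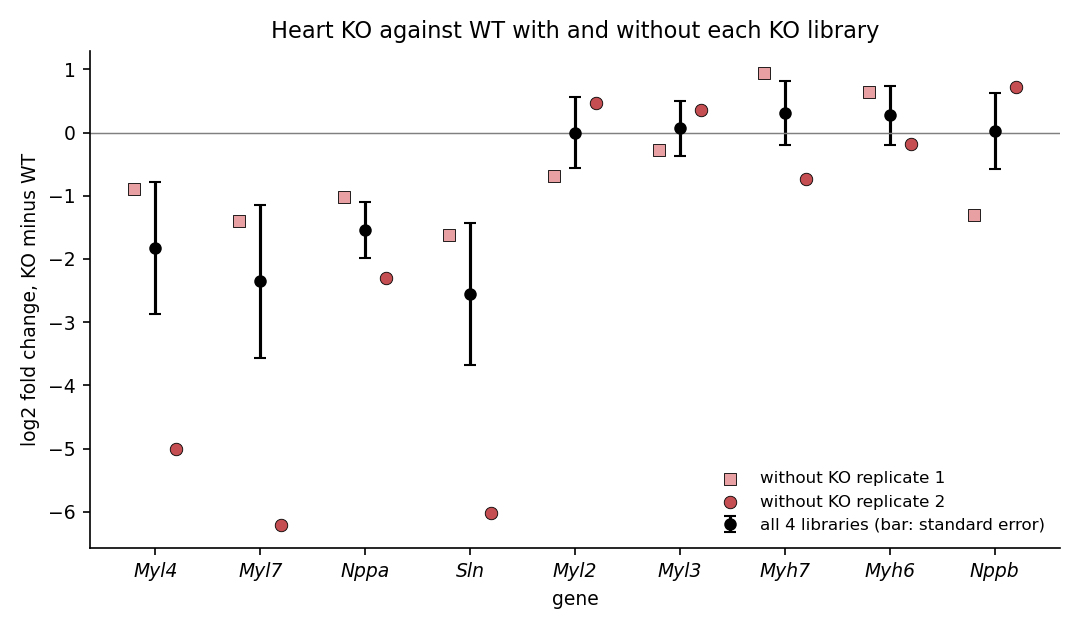
Log2 fold change of KO minus WT (y axis) for 9 of the genes in heart, from all 4 libraries with the standard error (black), without KO replicate 1 (light squares) and without KO replicate 2 (dark circles). Myl4, Myl7, Nppa, and Sln stay below 0 in all 3 fits, and the other 5 genes lie on both sides of 0. Bmp10 is left out because its libraries include counts of 0.

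To show the sequence at the starts of these genes, the 250 bases before the start annotated in RefSeq (GRCm38.p6) are printed. They are given for 3 atrial genes that held the motif below and for Nppb, which was highest in KO replicate 1. Windows were found for 9 of the 10 genes. The capitals mark matches on either strand to AGATAA or AGATAG, or to the same words with T as the first letter, the core that GATA factors of the heart are known to bind. The windows are chr4:148000472-148000721 (Nppa, plus strand), chr11:5898783-5899032 (Myl7, minus strand), chr6:87428744-87428993 (Bmp10, plus strand), and chr4:147985650-147985899 (Nppb, plus strand).
Nppa: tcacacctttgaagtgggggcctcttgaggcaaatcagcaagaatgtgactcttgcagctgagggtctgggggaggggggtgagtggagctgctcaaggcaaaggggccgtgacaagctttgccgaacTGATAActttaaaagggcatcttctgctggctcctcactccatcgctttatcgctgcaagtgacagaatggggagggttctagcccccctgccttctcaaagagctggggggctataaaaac
Myl7: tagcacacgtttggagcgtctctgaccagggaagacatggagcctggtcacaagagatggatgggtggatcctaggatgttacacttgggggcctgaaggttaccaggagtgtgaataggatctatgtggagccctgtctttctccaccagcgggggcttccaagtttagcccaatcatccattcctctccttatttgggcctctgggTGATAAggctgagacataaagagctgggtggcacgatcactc
Bmp10: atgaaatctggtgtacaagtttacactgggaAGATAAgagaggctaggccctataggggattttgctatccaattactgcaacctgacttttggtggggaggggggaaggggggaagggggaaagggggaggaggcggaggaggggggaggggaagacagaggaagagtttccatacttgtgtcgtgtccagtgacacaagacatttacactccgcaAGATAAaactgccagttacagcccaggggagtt
Nppb: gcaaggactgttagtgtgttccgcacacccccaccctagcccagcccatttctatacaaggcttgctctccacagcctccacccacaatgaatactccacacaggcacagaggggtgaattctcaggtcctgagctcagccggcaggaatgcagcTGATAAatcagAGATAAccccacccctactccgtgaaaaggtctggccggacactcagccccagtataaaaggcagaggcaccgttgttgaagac
At least 1 match was present in 6 of the 11 windows of these genes and in 26.5% of all 32851 promoter windows of the same length. Nppa and Myl7 had 1 match each, Bmp10 and Nppb had 2 each, and no matches overlapped. The RefSeq start of Nppb lies inside the gene span given above, and both of its matches fall within that span. One window each of Myl2 and Myh6 also held a match, so the matches were not limited to atrial genes, and they describe letters and not binding. The Myl4 window, at the upstream end of the gene, held none and is not printed.

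Other genes of the atrium were mixed. Of 17 listed genes, 16 were tested, and 0 were DEGs by edgeR or DESeq2. The median log2 fold change was -0.08 beside -0.009 for all genes, and 1 had an unadjusted p under 0.05. This was Fgf12, a regulator of sodium channels, with 11.1 and 20.4 CPM in WT and 0.557 and 6.26 CPM in KO (log2 fold change -2.13, SE 0.86). Mybphl, an atrial myosin-binding protein, had 0.766 and 15.9 CPM in KO against 17.1 and 40.8 CPM in WT. Both KO libraries were below both WT libraries for 4 genes of the list, the other 2 being Gja5, a gap junction protein, and Pam (9.66% of all genes). KO replicate 1 was the lowest library for 9 genes of the list, a count given without the share over all genes. Dkk3 had 8.97 and 45.3 CPM in WT and 5.23 and 17.4 CPM in KO, and Stard10 had 20.99 and 56.4 CPM in WT and 16.2 and 22.1 CPM in KO. Potassium channel genes of the list lay elsewhere, as Kcnj5, a subunit of the acetylcholine-gated channel and the highest of the list, had 96.3 and 81.4 CPM in WT and 91.2 and 118 CPM in KO. Pam, the enzyme that amidates peptides in atrial granules, was the most abundant by TPM and had 731 and 779 CPM in WT and 719 and 729 CPM in KO. With this list and the list of other ventricular genes in place of the 8 genes, the balance was -1.99 and -1.21 in WT and -2.76 and -1.60 in KO, again with KO replicate 1 lowest and KO replicate 2 between the WT libraries.

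Of the 11 other ventricular genes, 10 were tested, 0 were DEGs by either tool, and the median log2 fold change was 0.08. Irx5, a transcription factor of the ventricular wall, was the highest with 2.52 and 2.88 CPM in WT and 5.09 and 5.05 CPM in KO (log2 fold change 0.90), and Lbh was the lowest with -0.15. The most abundant by TPM was Fhl2, a scaffold of the sarcomere, and 1 gene had an unadjusted p under 0.05 (Irx3). In the list of 17 sarcomere and calcium store genes shared by both chambers, 0 were DEGs by either tool, 0 had an unadjusted p under 0.05, and the median was 0.16, with 15 positive and 2 negative values. Myoglobin (Mb) was the most abundant by TPM, Tcap the highest (0.37), and Myoz2 the lowest (-0.01). Their summed level was 115200.0 and 83598 CPM in WT and 122912 and 92796 CPM in KO. In KO replicate 1 the sum was thus the highest of the 4, while 2 of the 17 genes were lowest there, with no share over all genes given. These were Ryr2, the calcium release channel, with 1027 and 1043 CPM in WT and 660 and 1795 CPM in KO, and Ttn, the gene of titin, with 7341 and 6230 CPM in WT and 5904 and 9242 CPM in KO.

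The partners of the 10 genes were taken by pathway, and 0 DEGs were found in any of these lists with edgeR or DESeq2. In the natriuretic peptide pathway, 7 of 8 genes were tested, with a median log2 fold change of 0.02. Corin, the protease that cuts the Nppa product and the most abundant of the list, had 187 and 192 CPM in WT and 237 and 292 CPM in KO, Npr3, the clearance receptor, was the lowest (-0.44), and Prkg1, the kinase downstream of cyclic GMP, was the highest (0.62) and the 1 gene with an unadjusted p under 0.05. Among 6 calcium pump genes and regulators the median was 0.11, the pump Atp2a2 was the most abundant, and the values ran from -0.44 (Atp2a1) to 0.81 (Mrln, a sarcolipin-like peptide). For the receptors of BMP10 and its relative Gdf2, 5 of 6 genes were tested, with a median of -0.14, Bmpr1a as the most abundant, and values from -0.19 (Eng) to 0.06 (Bmpr2). In these last 2 lists, 0 genes had an unadjusted p under 0.05.

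The 10 myosin partners had a median log2 fold change of 0.03, from -1.75 (Mybphl) to 0.22 (Mybpc3, the most abundant). The 10 cardiac transcription factors, with Gata4 among them, had a median of 0.08, from -0.03 (Mef2a) to 0.49 (Nkx2-5), and Srf was the most abundant. Both lists had 0 genes with an unadjusted p under 0.05. The 7 genes of haemodynamic stress, which include Nppa, Nppb, and Myh7 themselves, had a median of 0.07, from -1.54 (Nppa) to 0.32 (Myh7). The most abundant was Nppb, and Nppa was the 1 gene with an unadjusted p under 0.05. Of 9 genes of the conduction system, 8 were tested, with a median of 0.14, from -1.02 (Scn10a) to 1.06 (Hcn4, the pacemaker channel, the 1 gene with an unadjusted p under 0.05). Hcn2 was the most abundant of them. These medians stand beside -0.009 for all genes.

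Genes outside the 10 were ranked by their likeness to the mean profile of the atrial genes, as the Euclidean distance of centred log2 CPM over the 4 heart libraries, among 14014 genes with a mean of at least 1 CPM. The nearest were Mybphl (0.70), Lgals12 (0.77), Fgf12 (1.02), Sbk3 (1.03), and Tmem163 (1.32), followed by Fosb (1.33), Mlana (1.35), Traf3ip3 (1.39), Gm15910 (1.54), and Zfhx4 (1.60). Sbk3, for example, had 13.2 and 25.2 CPM in WT and 1.18 and 12.1 CPM in KO. For comparison, Myl4 itself lay at 0.996, Nppa at 2.40, and Bmp10 at 4.05 from the mean of the atrial genes, and Bmp10 was thus farther from it than Myh7 (3.49) and Myh6 (3.83). Lgals12, a galectin known from fat cells, is in the ranking at a low level of at most 3.37 CPM. With 4 points, the ranking is only a description of these libraries.

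For the ventricular genes, likeness was the Pearson r of log2 CPM over all 20 libraries, among 23159 genes. The highest were Mb (0.996), Actc1 (0.995), Xirp2 (0.994), Dhrs7c (0.993), Myoz2 (0.992), and Asb12 (0.991), followed by Ckmt2 (0.989), Trim54 (0.988), Tecrl (0.988), and Tnni3k (0.987). The 20 points share their libraries and 4 of them are hearts, so these values describe mainly the difference between organs.

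Markers of other tissues that a dissected heart can carry were read in the same libraries. All 5 epicardium and mesothelium markers had both KO libraries below both WT libraries (9.66% of all genes), with a median log2 fold change of -1.53, 0 DEGs by either tool and 4 genes with an unadjusted p under 0.05. Their summed level was 55.6 and 59.8 CPM in WT and 9.62 and 30.6 CPM in KO, Upk3b was the most abundant by TPM, Msln the lowest in fold change (-2.15) and Wt1 the highest (-0.42), and none was at 0 in all 4 libraries. Of 11 lung and airway markers, 8 were tested, with a median of -1.04, 0 DEGs by edgeR, 1 by DESeq2 (Scgb3a2), 3 genes with an unadjusted p under 0.05, and 4 genes with both KO libraries below both WT libraries, beside the same 9.66%. Their summed level was 40.8 and 66.5 CPM in WT and 11.4 and 29.4 CPM in KO, with Scgb1a1, a secretory protein of the airway, as the most abundant, Scgb3a2 the lowest (-3.95), and Ager the highest (0.50). These lists had their lowest sum in KO replicate 1, as had the 5 atrial genes, with 801 and 1409 CPM in WT and 75.4 and 493 CPM in KO. Their part in the result was not tested.

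The remaining marker lists had 0 DEGs by either tool and did not have both KO sums below both WT sums, apart from the hepatocyte list. Adipocyte markers had a median of -1.49, from -3.43 (Ucp1) to 0.26 (Fabp4, the most abundant), and their sums of 1388 and 1409 CPM in WT and 1887 and 1219 CPM in KO were mostly Fabp4. The other 7 markers were higher in replicate 2 than in replicate 1 in both genotypes, as were Myl4, Myl7, Nppa, Sln, and Bmp10. Adipoq, a hormone of fat cells, had 0.528 and 42.8 CPM in WT and 1.46 and 11.7 CPM in KO, and Ucp1, the uncoupling protein of brown fat, had 0.117 and 61.5 CPM in WT and 0 and 5.27 CPM in KO. Erythroid markers, a sign of blood, had sums of 2966 and 2114 CPM in WT and 5121 and 983 CPM in KO, a median of -0.08 over 9 tested genes, and values from -2.61 (Slc4a1, the 1 gene with an unadjusted p under 0.05) to 0.37 (Hbb-bs, the most abundant). KO replicate 1 had the most and KO replicate 2 the least of these transcripts. Endothelium markers had a median of 0.04 and sums of 509 and 648 CPM in WT and 554 and 661 CPM in KO. Those of the smooth muscle of vessels had a median of -0.06 and sums of 357 and 370 CPM in WT and 321 and 432 CPM in KO.

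Fibroblast markers had a median of -0.21 and sums of 1485 and 2110 CPM in WT and 1614 and 1462 CPM in KO. Skeletal muscle markers had a median of 0.06, sums of 263 and 251 CPM in WT and 339 and 235 CPM in KO, and 2 defining genes, Myh2 and Tnnc2, at 0 in all 4 libraries. Thymus markers stood out in WT replicate 2, with sums of 0.821 and 13.01 CPM in WT and 0.906 and 1.92 CPM in KO and 1 gene tested (Tcf7, -1.59). Rag1, an enzyme of developing lymphocytes, had 139 counts in WT replicate 2, 4 in KO replicate 2, and 0 in both libraries of replicate 1. WT replicate 2 was also the library with the most atrial transcript. Hepatocyte markers, of which Serpina1a was at 0 in all 4 libraries, summed to 5.92 and 8.52 CPM in WT and 1.53 and 5.16 CPM in KO, with a median of -0.92 over 3 tested genes, from -3.29 (Apoa1, with an unadjusted p under 0.05) to -0.55 (Ttr). In the fibroblast, skeletal muscle, thymus, endothelium, smooth muscle, and adipocyte lists, 0 genes had an unadjusted p under 0.05. The part of these cells in the values of the 10 genes was not tested.

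**Figure D4:**
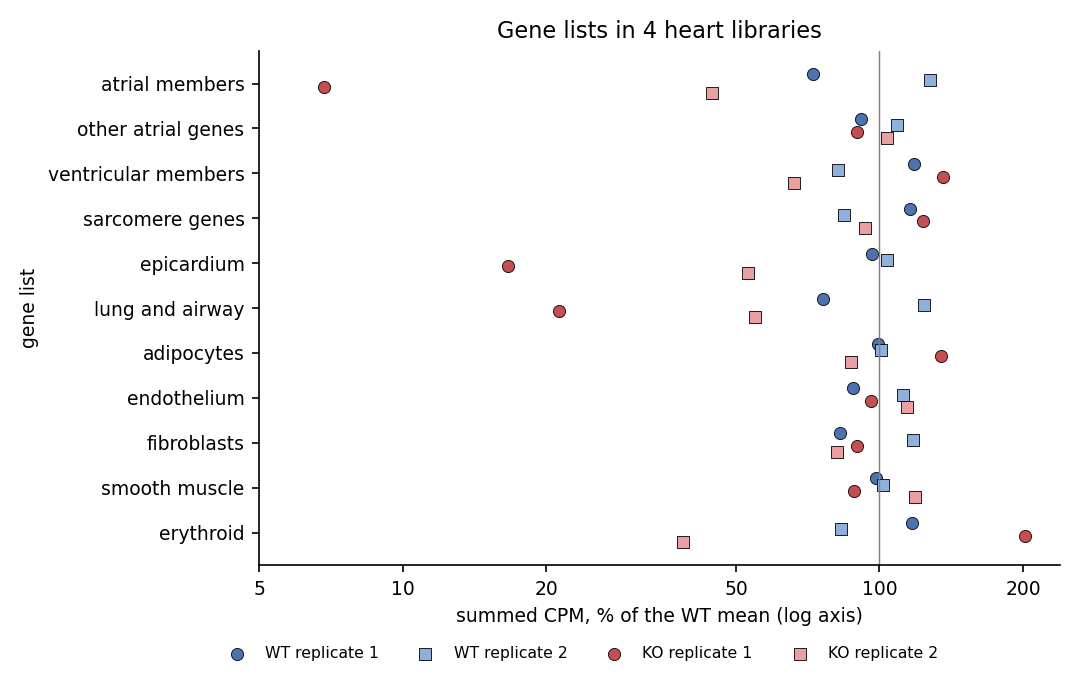
Summed CPM of each gene list in the 2 WT (blue) and 2 KO (red) heart libraries, as a percentage of the WT mean (x axis, log scale), with circles for replicate 1 and squares for replicate 2. The atrial genes, the epicardium, and the lung and airway markers are lowest in KO replicate 1, at 6.82%, 16.7%, and 21.3% of the WT mean, whereas the sarcomere genes are at 124%.

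Against the other organs, the 10 genes marked the heart. In one edgeR fit of all 20 libraries and 23159 genes, all 10 genes were higher in heart than in the small intestine, the spleen, and the kidney at that threshold, where 25.9%, 25.2%, and 18.1% of all genes were. Against the liver, 9 of the 10 were higher, beside 24.8% of all genes, and 9 were higher against every organ, beside 8.65% of all genes. The exception was Bmp10. Its call against the small intestine, the spleen, and the kidney was lost with DESeq2, without heart WT replicate 2, and without heart KO replicate 2. The organ comparisons share the heart libraries, and the genes were chosen as known heart genes, so these counts check the label and give sizes.

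Apart from Bmp10 against the liver, the smallest differences were those of Myl7 against the small intestine and Myl4 and Sln against the spleen. Myl7 was higher in heart than in the small intestine by a log2 fold change of 4.41 (SE 0.85, edgeR adjusted p = 0.000685), and Myl4 higher than in the spleen by 4.599 (SE 0.66, edgeR adjusted p = 5.43e-05). Sln was higher than in the spleen by 6.76 (SE 1.11, edgeR adjusted p = 0.000714). Without heart KO replicate 2 these values fell to 2.33 (Myl7), 2.82 (Myl4), and 4.85 (Sln), and without heart KO replicate 1 they were 4.81, 4.95, and 7.12, and all stayed called. Myl2, in contrast, was higher than in the kidney by 15.39 (SE 1.61), than in the spleen by 14.48 (SE 1.56), and than in the liver by 13.75 (SE 1.53). Some genes had no count at all in an organ. Against a limit of 3 counts over the 4 libraries, Nppb was at least 11629-fold higher in heart than in the liver, and Nppa at least 6248-fold. On the same basis Sln was at least 3269-fold higher than in the liver and at least 4099-fold higher than in the kidney, and Bmp10 at least 129-fold higher than in the small intestine and at least 133-fold higher than in the kidney. These bounds use the mean of the 4 hearts, of which 2 had no Bmp10. Without heart WT replicate 2 the bounds of Bmp10 were at least 30.8-fold and 31.9-fold, and those of Sln at least 1924-fold (liver) and 2413-fold (kidney). Nppa in spleen (1 count) and kidney (3 counts), Nppb in kidney (2 counts), Bmp10 in spleen (3 counts), and Myh7 in liver (2 counts) were too low for a fold.

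**Figure D5:**
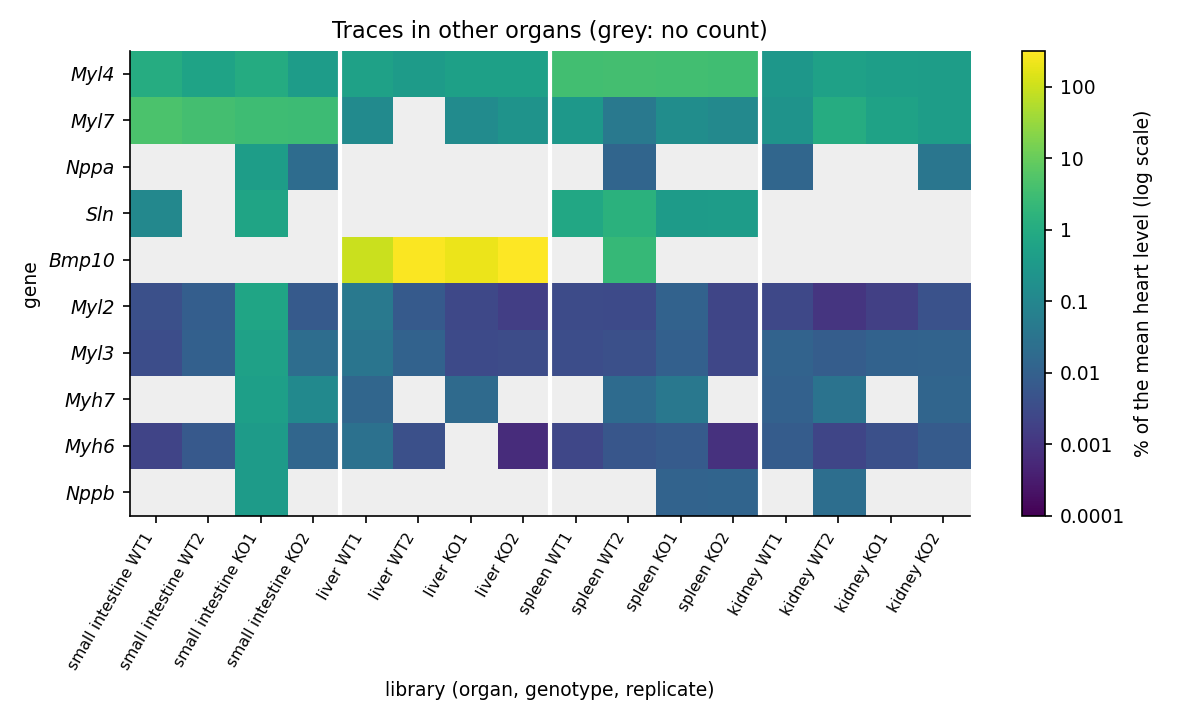
Level of each of the 10 genes (rows) in each of the 16 libraries of the other organs (columns), as a percentage of the mean heart level on a log colour scale, with grey for no count. Bmp10 is above the heart mean in 3 of the 4 liver libraries and at 94.8% of it in WT replicate 1, Myl7 in the small intestine and Myl4 in the spleen reach some percent of it, and KO replicate 1 of the small intestine stands out in the ventricular rows.

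In the liver, Bmp10 was found in every library, and no difference from the heart was called. It had 83 and 187 counts in WT and 147 and 343 counts in KO, or 2.12 and 6.54 CPM in WT and 4.73 and 8.08 CPM in KO. After TMM over all libraries, the mean liver level was 238% of the mean heart level, with a log2 fold change of heart minus liver of -1.55 (SE 1.38, edgeR adjusted p = 0.411). On the TPM scale the means were 2.86 in the liver and 2.19 in the heart, so the size depends on the scaling. Over 12 alternative settings the log2 fold change ran from -6.76 to -0.20. Without WT replicate 2 of the heart, Bmp10 was called lower in heart than in liver, with a log2 fold change of -6.76 and a liver level of 993% of the heart mean. Nppa, Nppb, and Sln had 0 counts in all 4 liver libraries. Gdf2, the relative of BMP10 that the liver is known for, was at most 0.363 CPM in heart.

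In the spleen, Myl4 had 441 and 344 counts in WT and 366 and 330 counts in KO, which is 12.2 and 13.6 CPM in WT and 12.4 and 12.02 CPM in KO. These values are 3.43% of the mean heart level and vary little between libraries. KO minus WT in the spleen was -0.08 (SE 0.22) for Myl4 on the log2 scale, beside -1.83 (SE 1.05) in the heart, or -0.89 without heart KO replicate 1. Sln was also present in all spleen libraries, with 43 and 59 counts in WT and 17 and 18 counts in KO. Both KO libraries were below both WT libraries (14.4% of all genes in spleen), with a log2 fold change of -1.503 (SE 0.54, edgeR adjusted p = 0.779), so it was not a DEG. Skeletal muscle, where Sln is also known, was read in the same libraries. All 14 of its markers had a count in at least 1 spleen library, Mylpf was the most abundant by count, and they summed to 27.5 and 28.8 CPM in WT and 33.2 and 29.1 CPM in KO, and their part in the Sln value was not tested. In the small intestine, Myl7 had 280 and 167 counts in WT and 154 and 127 counts in KO, which is 8.01 and 6.52 CPM in WT, 5.26 and 5.09 CPM in KO, and 3.54% of the mean heart level, or 6.16% without heart WT replicate 2. The KO values were both under the WT values, as for 11.6% of all genes there, with a log2 fold change of -0.49 (SE 0.42).

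Ventricular transcripts were concentrated in 1 library of the small intestine. Myl2 had 34 and 56 counts in WT and 4688 and 41 counts in KO, so KO replicate 1 stood apart from the other 3 libraries. For Myl3 the counts were 8 and 17 (WT) against 988 and 36 (KO), and for Myh6 8 and 18 (WT) against 1110 and 37 (KO). In KO replicate 1, Myl2, Myl3, and Myh6 were at 0.678%, 0.522%, and 0.371% of the mean heart level, and Myh7, Nppb, Nppa, and Sln at 0.472%, 0.363%, 0.427%, and 0.612%. These 7 genes thus lay in a narrow band, while Myl4 (1.03%), Myl7 (3.09%), and Bmp10 (0 counts) lay outside it. The values of Sln, Myl4, and Myl7 rest on the heart mean and were 1.04%, 1.51%, and 5.38% without heart WT replicate 2. Of the 17 sarcomere genes, 12 were under 1%, with Tnni3 at 0.553% (1729 counts) and Tnnt2 at 0.577% (1686 counts), and 5 were above, namely Casq2, Myom1, Atp2a2, Tpm1, and Ldb3, which reached 32.5%. In the other small intestine libraries, Ldb3 was at 19.2% to 19.9%, Tpm1 at 1.93% to 2.70%, and Atp2a2 at 1.87% to 2.57%. Myom1 was at 0.184% to 0.838% and Casq2 at 0.137% to 0.411% there. The median of the 17 genes was 0.577% in KO replicate 1, beside 0.0191% to 0.0406% in the other 3 libraries. The skeletal muscle markers, in contrast, summed to 29.8 CPM in this library and 16.9, 49.7, and 28.6 CPM in the others. Of the 14 markers, 10 had a count in this library. Acta1, which the heart also expresses, was the most abundant by count (426), and Myh1, Myh4, Tnnc2, and Pvalb were at 0.

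WT replicate 1 of the liver had a smaller excess. Myl2 had 277 and 33 counts in WT and 13 and 11 counts in KO, Myl3 had 59 and 14 counts in WT and 4 and 6 counts in KO, and Myh6 had 75 and 8 counts in WT and 0 and 2 counts in KO. In that library Myl2 was at 0.0436%, Myl3 at 0.0340%, and Myh6 at 0.0273% of the mean heart level, and the median of the sarcomere genes was 0.0414%, beside 0.00389% to 0.00751% in the other liver libraries. In the spleen, KO replicate 1 was the highest for Myl2 with 119 counts against 24 to 39, and in the kidney Myl2 had 6 to 30 counts. WT replicate 2 of the spleen, whose hepatocyte markers summed to 4760 CPM against 9.43 to 246 CPM in the other spleen libraries, was not raised in ventricular transcripts.

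KO was then compared with WT in these organs. The filter on low counts left 6 of the 10 genes in the spleen, 5 each in the small intestine and the kidney, and 4 in the liver, and edgeR called 0 of them in each organ. Among all genes tested, the share called was 0.223% in the spleen, 0.0509% in the liver, 0% in the kidney, and 0% in the small intestine. An unadjusted p under 0.05 was found for Myl3 and Myh6 in the small intestine, for Myl2 and Myl3 in the liver, for Sln in the spleen, and for 0 genes in the kidney. Over all genes tested, 422 of 17680 had such a p in the small intestine and 739 of 15729 in the liver. The count was 969 of 18834 in the spleen and 112 of 17550 in the kidney. In the small intestine, the log2 fold changes were 5.68 for Myl2 (SE 2.20), 5.31 for Myl3 (SE 1.75), and 5.41 for Myh6 (SE 1.80), and rest on KO replicate 1. Without that library they were 0.0662 (SE 0.96), 1.70 (SE 1.14), and 1.68 (SE 1.14). DESeq2 called these 3 genes higher with all libraries, beside 0.334% of all genes, and without KO replicate 1 it called 0 of the 10 genes, where Myl3 had no adjusted p. The 6 smooth muscle markers also had both KO libraries above both WT libraries in the small intestine (13.6% of all genes), with 0 DEGs by edgeR, an unadjusted p under 0.05 for all 6, and a median log2 fold change of 2.05. Their summed level was 1716 and 1078 CPM in KO against 222 and 349 CPM in WT, Actg2 was the most abundant, and none was at 0. Their part in the values of the 10 genes was not tested. In the liver, those of Myl2 and Myl3 were -3.63 (SE 0.90, edgeR adjusted p = 0.871) and -2.86 (SE 0.81, edgeR adjusted p = 0.926), and DESeq2 called Myl2 and Myh6 lower, beside 0.349% of all genes. Without WT replicate 1, the library with the excess, the edgeR values were -1.78 for Myl2 (SE 0.80) and -1.83 for Myl3 (SE 1.21), neither was called, and DESeq2 gave no adjusted p for Myl2, Myl3, or Myh6. In the spleen and the kidney DESeq2 called 0 of the 10 genes, beside 1.35% and 0% of all genes.

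Whether the genotype effect in heart differed from that in another organ was tested as an interaction in the fit of 20 libraries. Of the 10 genes, 0 were called against each of the 4 organs, as were 0% of all genes in each. With unadjusted p under 0.05 there were 6 genes against the small intestine, 1 against the liver (Myh6), and 0 against the spleen and the kidney. No such count over all genes is given here. The 6 genes were Nppa, Nppb, Myl2, Myl3, Myh6, and Myh7, all with counts in KO replicate 1 of the small intestine that were absent or low in WT. Without that library, 1 gene had an unadjusted p under 0.05 against the small intestine (Myh7). DESeq2 called 1 gene against the small intestine (Myl3), beside 0.306% of all genes, and 0 without KO replicate 1 of the small intestine. Against the liver, the spleen, and the kidney it called 0 of the 10, beside 0.158%, 0.263%, and 0.0191% of all genes. The difference for Myl7 was -1.89 (SE 1.51) against the small intestine and -1.94 against both the spleen (SE 1.74) and the kidney (SE 1.60) on the log2 scale. Against the liver it was -3.64 (SE 2.03), and it was called in none of these. These Myl7 values and the Myh6 difference against the liver are given with all libraries only.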

How the data were processed

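RNA-seq libraries of 5 organs from WT and Nsun6-KO mice were grouped by the tissue and genotype of the labels, with 2 libraries in each of 10 groups. According to the study's methods and the submitters' processing notes, the authors trimmed reads with cutadapt, aligned them with HISAT2 2.1.0 to mm10, counted exons with featureCounts 2.0.1, and deposited the raw, unnormalized counts of each gene beside its merged exon length in bp (other than a measured value). The methods state reverse-stranded counting of proper pairs, but the stored command holds no such option, so reads of overlapping genes on both strands cannot be told apart and mates may be counted singly. The methods print GRCh38, whereas the annotation in the file is mouse. In the headers, the heart replicate 2 columns carry "pre", whose meaning is not given in the sources used here.

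From the counts, edgeR 4.0.16 (R 4.3.3) was run with TMM, filterByExpr, and the robust quasi-likelihood test, and p-values were Benjamini-Hochberg adjusted over all genes of a fit. Each organ had a fit of its own, and organs and interactions were compared in one fit of 20 libraries. The SE is the size of a log2 fold change over the root of its F statistic. CPM are after TMM within the organ, percentages of the heart level use CPM after TMM over all libraries, and TPM were computed from counts and merged exon lengths. Totals ranged from 15897446 to 44508197 counts per library. Limits for a count of 0 cover counting error only, and those of Bmp10 in single heart libraries are without TMM.

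The 10 genes, the lists, and the tests were chosen with earlier results of these data known. The named genes are the 10, from each list the genes called, the highest, the lowest, and the most abundant by TPM, markers at 0, and the 10 genes most like each profile. Fgf12, Mybphl, Gja5, Dkk3, Stard10, Ryr2, Ttn, Casq2, Myom1, Tpm1, Ldb3, Adipoq, Rag1, Corin, Irx3, Tnni3, and Tnnt2, where outside this rule, were named after their values were seen. The alternatives were DESeq2 1.42.0, other size factors, no filter, other thresholds, a replicate block, a single fit for every library, gene lengths of transcripts, and libraries left out. Simulated counts with 4-fold changes were run for heart KO against WT (edgeR and DESeq2) and heart against kidney (edgeR). In the first, edgeR recovered 147 of 195 changed genes with 11 false calls, and DESeq2 135 of 200 with 29. The edgeR run held 16144 genes and the DESeq2 run 16632. In the fit of the real heart libraries, Sln (log2 fold change -2.55) and Myl7 (-2.36) were more than 4-fold lower in KO and were not called. For heart against kidney, edgeR recovered 126 of 191 with 15 false calls. Whether such recovery holds for the spread of the real libraries was not tested. Figures used matplotlib 3.10.9.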

Additional observations from a re-analysis of the deposited data

How the results depend on the processing

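In heart, 0 of the 10 genes were called with all libraries under edgeR, DESeq2, other size factors, no threshold on the fold change, or a single fit for every library, but 1 was with no filter on low counts and 1 with the replicate number as a block (Nppa, lower, in both). Leaving out each library in turn gave 0 to 4 calls, the 4 being Nppa, Sln, Myl7, and Myl4 without KO replicate 2. Over all genes, the count of 0 became 3 with DESeq2, 13 with no filter, 6 with the replicate block, and 0 to 22 with a library left out (22 without WT replicate 1, 12 without KO replicate 2, and 2 without KO replicate 1). In the small intestine DESeq2 called 3 of the genes, and in the liver DESeq2 called 2, no filter 3, and leaving out a library 0 to 3, the 3 without WT replicate 2, which leaves WT replicate 1, with the excess of ventricular transcripts, as the only WT library. The interaction with the small intestine had 1 call under DESeq2. Without KO replicate 1 of the small intestine or WT replicate 1 of the liver, fits added after seeing the data, DESeq2 called 0 of the genes in that organ, with no adjusted p for Myl3 in the former and for Myl2, Myl3, and Myh6 in the latter. The causes were not tested.

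With a library left out, log2 fold changes in heart ran from -10.00 to 7.98 for Bmp10, which then stands against libraries at 0 and is no bound, from -0.18 to 0.64 for Myh6, from -0.73 to 0.94 for Myh7, from -0.69 to 0.47 for Myl2, from -0.28 to 0.36 for Myl3, and from -1.31 to 0.72 for Nppb. That of Myl2 was 0.0207 with DESeq2, 0.0237 with other size factors, and 0.0172 in a single fit for every library, and that of Nppb was -0.30 with the replicate block. In the kidney the ranges were -0.54 to 1.26 (Myh6), -0.0781 to 1.56 (Myl2), -0.11 to 0.39 (Myl3), -0.30 to 0.57 (Myl4), and -1.17 to 1.07 (Myl7). In the spleen they were -2.13 to 0.89 (Myh6), -0.33 to 1.91 (Myl2), -0.53 to 1.44 (Myl3), and -1.07 to 1.60 (Myl7), and the replicate block gave -0.27 for Myh6 and 0.0397 for Myl7. In the liver they were -0.0298 to 1.60 (Bmp10) and -0.0431 to 0.40 (Myl4), and in the small intestine -1.07 to 0.24 (Myl4).

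The difference of the KO and WT means of the chamber balance was -2.63, ran from -3.01 to -2.35 with 1 of the genes left out and from -4.62 to -0.64 with 1 library left out (without KO replicate 2 and without KO replicate 1), and was -2.41 from summed CPM, -2.64 with a prior count of 0.5, and -0.58 with the lists of other genes. The calls of genes higher in heart were 9 in place of 10 with DESeq2, without heart WT replicate 2, and without heart KO replicate 2, against each of the small intestine, the spleen, and the kidney, the gene lost being Bmp10, and 9 against the liver in every alternative. Bmp10 was called lower in heart than in liver with no filter, with the replicate block, and without heart WT replicate 2. The counts stayed at 10 and 9 without KO replicate 1 of the small intestine, which was left out after seeing the data. Replicate numbers gave a correlation of deviations of 0.365 in heart, 0.57 in the small intestine, 0.126 in the kidney, 0.0376 in the liver, and 0.00707 in the spleen. With 2 numbers and no label that ties them to animals, they were not taken as pairs. Depth limits the traces outside the heart.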
